A study of Mus musculus with 4 samples.

Results

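The interleukin-1 and inflammasome genes examined here were Il1a, Il1b, Il18, Il1rn, Il1r2, Il18bp, Nlrp3, Casp1 and Mefv, 9 of the 31253 genes in the feature tables, taken by exact match of the gene symbol. They were measured in live CD45+ cells sorted on day 14 from the tumor-bearing brain hemisphere of mice given intracranial CT2a, a mouse glioma line syngeneic to C57BL/6. The hosts were WT mice and CaMKK2 KO mice (CaMKK2-/-), in which the kinase was deleted in the whole animal and not in a chosen cell type, on the C57BL/6 background. Each genotype had 4 mice, told apart by hashtag antibodies and combined on 1 10X channel, so that genotype and channel cannot be told apart. The mouse was the replicate throughout, and mouse numbers only name the hashtags.

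IL-1α, IL-1β and IL-18 are cytokines of the same family. IL-1β and IL-18 are made as inactive precursors and are cut by caspase-1, which is activated on an inflammasome, a complex nucleated by a sensor such as NLRP3 or pyrin (encoded by Mefv). IL-1α can act without that cleavage. The pathway is held back at several points, since Il1rn encodes the IL-1 receptor antagonist, Il1r2 a decoy receptor that binds IL-1 without signalling, and Il18bp a secreted protein that traps IL-18. Monocytes and macrophages are major producers in inflamed tissue, and microglia, the resident macrophages of the brain, carry much of the same machinery. Transcript levels do not report cleavage or secretion, which were not measured in these libraries.

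The promoters of Il1b and Il1rn are shown because agonist and antagonist are compared with each other further on, in counts summed per mouse. The sequences are the 250 bases before an annotated start in RefSeq (GRCm38.p6), read 5′ to 3′ on the gene's strand, with capitals marking a match on either strand to the kB site pattern GGGNNNNNCC, an NF-κB motif, or to the interferon motifs ISRE (GAAANNGAAA) and GAS (TTCNNNGAA). Il1b lies at chr2:129364570-129371139 on the minus strand, and its promoter window at chr2:129371140-129371389. Il1rn lies at chr2:24336853-24351494 on the plus strand, with an upstream start (window chr2:24336610-24336859) and 2 downstream starts, of which the further one is shown (window chr2:24345121-24345370), and their transcripts cannot be told apart by the 3' tags counted here.
Il1b promoter: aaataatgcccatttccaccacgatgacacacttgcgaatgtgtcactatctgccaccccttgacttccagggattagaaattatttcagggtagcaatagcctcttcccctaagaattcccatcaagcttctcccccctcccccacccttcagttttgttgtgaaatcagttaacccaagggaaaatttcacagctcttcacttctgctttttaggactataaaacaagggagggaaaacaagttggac
Il1rn upstream promoter: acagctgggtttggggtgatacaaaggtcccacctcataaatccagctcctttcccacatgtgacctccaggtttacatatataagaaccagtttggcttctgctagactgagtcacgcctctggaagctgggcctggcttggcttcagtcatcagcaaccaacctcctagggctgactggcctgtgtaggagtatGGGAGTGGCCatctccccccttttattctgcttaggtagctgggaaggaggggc
Il1rn downstream promoter: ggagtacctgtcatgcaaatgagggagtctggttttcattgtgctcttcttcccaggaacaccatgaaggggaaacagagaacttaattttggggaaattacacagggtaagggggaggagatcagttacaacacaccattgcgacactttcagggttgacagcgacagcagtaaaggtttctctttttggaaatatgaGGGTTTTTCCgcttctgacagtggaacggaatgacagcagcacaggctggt

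The Il1rn windows shown each held a kB match, GGGAGTGGCC beginning 54 bases before the upstream start and GGGTTTTTCC beginning 51 bases before the downstream start, and the window of the remaining start (chr2:24345041-24345290) held none. The Il1b window held no match to the 3 patterns, which says only that these letters are not in this window. The kB pattern was found in 45.8% of all 32851 promoter windows of the same source, the ISRE in 2.98% and the GAS in 7.02%, so a kB match is common. Among the other members, the windows of Casp1 and Mefv and 1 of 2 windows of Nlrp3 held a kB match, that of Il1r2 a GAS match, and those of Il1a, Il18 and Il18bp none of the 3.

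The libraries held 6689 WT and 7271 CaMKK2 KO barcodes, of which 5051 and 5636 cells were kept, with 11890210 to 20360454 UMIs (unique molecules counted) per mouse. Cells were put into classes by marker genes, none of which is a member, giving 1610 WT and 1194 CaMKK2 KO TAM-like cells (tumor-associated macrophages), 705 and 1420 cMono-like cells (classical monocytes), 410 and 197 microglia-like cells, and 356 and 198 DC2-like cells (type 2 conventional dendritic cells). Smaller classes were ncMono-like (non-classical monocyte), DC1-like, mature DC-like and lymphoid. The channels shared 42 barcodes, 8 of them among kept cells. Levels are CPM, counts scaled to the total UMIs of the class in that mouse, given as mean ± SD over mice, and they are compared between classes or genotypes for 1 gene and never between genes. Camkk2 UMIs were lower in CaMKK2 KO mice but present, with a level in TAM-like cells of 25.7 ± 2.55 CPM for WT and 12.7 ± 1.59 CPM for CaMKK2 KO (SD, n = 4 each), and counts per gene do not show which part of the transcript they come from. In the edgeR test described below, Camkk2 passed in TAM-like, cMono-like and microglia-like cells (adjusted p = 0.00248, 0.00265 and 0.0435). It was lower without passing in DC2-like cells, ncMono-like cells and all cells summed (edgeR, adjusted p = 0.190, 0.567 and 0.0710).

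Among the agonists, Il1a had its highest level in microglia-like cells and Il1b was found throughout the myeloid classes. Il1a stood at 187 ± 57.9 CPM in microglia-like cells (SD, n = 8 mice) and at 26.4 ± 12.2 CPM in the next class, cMono-like cells. It was higher in microglia-like cells in 8 of 8 mice, by 2.84 on the log2(CPM + 1) scale (two-sided exact sign-flip permutation test, p = 0.00781, the smallest 8 mice allow, adjusted p = 0.0859 over the 11 neighbouring pairs of classes). TAM-like cells had 18.8 ± 9.64 CPM, which did not separate from ncMono-like cells at 23.3 ± 27.6 CPM.

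Among the classes ordered, which leave out neutrophil-like cells, Il1b was highest in cMono-like cells at 2425 ± 794 CPM. They were followed by ncMono-like cells at 2179 ± 1005 CPM and DC2-like cells at 1977 ± 657 CPM, and these neighbours did not differ beyond the spread between mice. TAM-like cells had 1194 ± 396 CPM and microglia-like cells 649 ± 217 CPM. Below them the level dropped to 35.1 ± 18.2 CPM in B-like cells, lower than in microglia-like cells in 8 of 8 mice (exact sign-flip permutation p = 0.00781, adjusted p = 0.0859). B-like cells served as the reference for free RNA. Of them, 11.9 ± 3.24% of WT and 7.49 ± 5.02% of CaMKK2 KO cells held an Il1b UMI after each cell was thinned to 3000 UMIs, against 58.5% and 72.2% of TAM-like cells. Unthinned, the shares were 15.7% and 14.0% of B-like and 79.3% and 86.7% of TAM-like cells. Median depth was 3553 and 4989 UMIs per B-like cell and 16434 and 16266 per TAM-like cell, and the lymphoid values are read as background. Neutrophil-like cells reached 10 cells in only 3 mice, in which Il1b stood at 2821 and 3914 CPM (WT) and 5120.4 CPM (CaMKK2 KO), and the class was not tested.

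Il18 was highest in cMono-like cells at 90.0 ± 32.5 CPM, above microglia-like cells at 40.7 ± 8.14 CPM in 7 of 8 mice (exact sign-flip permutation p = 0.0156, adjusted p = 0.0859). Next came ncMono-like cells at 37.3 ± 17.5 CPM, DC1-like cells at 28.7 ± 6.99 CPM and TAM-like cells at 27.4 ± 6.87 CPM, neighbours not separated by the spread between mice, and then DC2-like cells at 15.8 ± 4.60 CPM, lower than TAM-like cells in 8 of 8 mice.

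**Figure D1:**
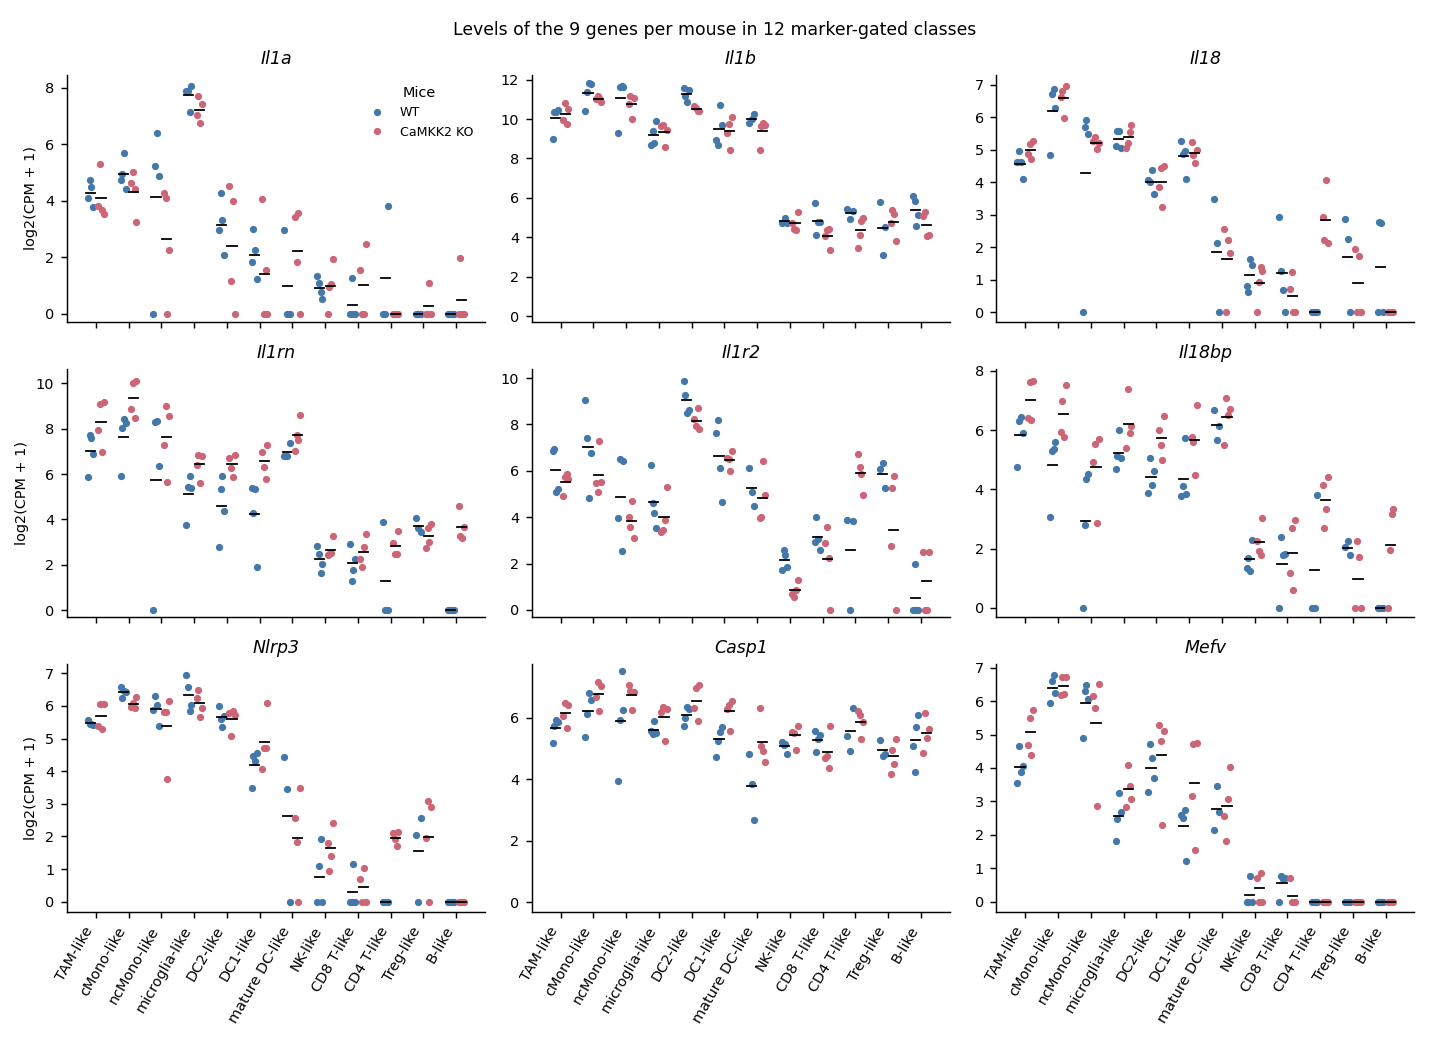
Level of each member in each class, as log2(CPM + 1), with 1 point per mouse (WT blue, CaMKK2 KO red) and a dash at the mean. Of the classes shown, which leave out neutrophil-like cells, Il1a is highest in microglia-like cells (187 CPM on average against 26.4 CPM in the next class) and Il1r2 in DC2-like cells. Casp1 is above 0 in every class and mouse shown.

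The antagonists had their highest levels in different classes. Il1rn was highest in cMono-like cells at 490.2 ± 376 CPM, above TAM-like cells at 259 ± 196 CPM in 8 of 8 mice (exact sign-flip permutation p = 0.00781, adjusted p = 0.0573). In B-like cells no Il1rn UMI was found among 664454 UMIs of the WT mice, which allows up to 4.51 CPM for counting error alone, and 4 of 4 CaMKK2 KO mice had between 7.93 and 23.1 CPM there. Among the classes ordered, which leave out neutrophil-like cells, Il1r2, the decoy receptor, was highest in DC2-like cells, with 436 ± 239 CPM there and 138 ± 166 CPM in cMono-like cells, higher in 8 of 8 mice by 2.19 on the log2(CPM + 1) scale (exact sign-flip permutation p = 0.00781, adjusted p = 0.0859). Its value in the neutrophil-like cells of WT mouse 1, given further on, was higher. DC1-like cells had 117 ± 85.8 CPM, Treg-like cells 39.9 ± 29.4 CPM and CD4 T-like cells 41.2 ± 37.3 CPM (n = 7 mice for each T-cell class), against 1.52 CPM in B-like cells. Il18bp was spread over TAM-like cells at 102 ± 63.9 CPM, mature DC-like cells at 85.1 ± 32.4 CPM, cMono-like cells at 69.5 ± 56.8 CPM and microglia-like cells at 61.6 ± 46.3 CPM, whose order was not separated by the spread between mice.

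Nlrp3 in microglia-like cells (76.4 ± 23.8 CPM) and cMono-like cells (76.1 ± 12.3 CPM) did not differ beyond the spread between mice, with 54.3 ± 20.3 CPM in ncMono-like and 48.0 ± 11.4 CPM in TAM-like cells. Among the classes ordered, Mefv, the gene for pyrin, was highest in cMono-like cells at 86.8 ± 18.9 CPM, with 60.5 ± 29.6 CPM in ncMono-like cells. The former were higher in 8 of 8 mice (exact sign-flip permutation p = 0.00781, adjusted p = 0.0430). It was not confined to monocytes, and the values in TAM-like cells are given further on. Microglia-like cells, with Nlrp3 at the top of its order, had only 7.58 CPM of Mefv. B-like cells held no UMI of either gene, which allows up to 4.51 CPM for WT mice and up to 2.68 CPM for CaMKK2 KO mice. Casp1, the protease common to both sensors, was the broadest member, from 96.2 ± 51.0 CPM in ncMono-like and 94.9 ± 33.2 CPM in cMono-like cells to 44.4 CPM in B-like cells and 28.5 CPM in Treg-like cells.

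Because classes differ in size, the share of all UMIs of a gene that lay in each class was also computed per mouse. The microglia-like class averaged 8.70% of cells per WT mouse and 3.59% per CaMKK2 KO mouse and held 52.4 ± 25.4% and 34.5 ± 17.1% of Il1a UMIs. DC2-like cells averaged 7.01% and 3.47% of cells per mouse and held 44.7 ± 12.5% and 27.5 ± 12.6% of Il1r2 UMIs. Most Il1rn UMIs came from TAM-like cells in WT mice (57.2 ± 18.8%, with 27.1 ± 16.1% from cMono-like cells) and from cMono-like cells in CaMKK2 KO mice (52.1 ± 14.0%, with 31.9 ± 12.9% from TAM-like cells), but neither difference passed (exact permutation test of 4 against 4, p = 0.0857 each, where 0.0286 is the smallest possible). With expression clusters in place of the marker classes, TAM clusters held 58.8% of Il1rn UMIs over 8 mice. The main source in CaMKK2 KO mice thus depended on how cells were grouped, as the closing section gives. Mefv had the largest cMono share in WT mice of any member, 45.4 ± 20.3%. The cMono-like class itself averaged 13.5% of cells per WT mouse and 25.8% per CaMKK2 KO mouse, so these shares carry the class sizes along with the level per cell.

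**Figure D2:**
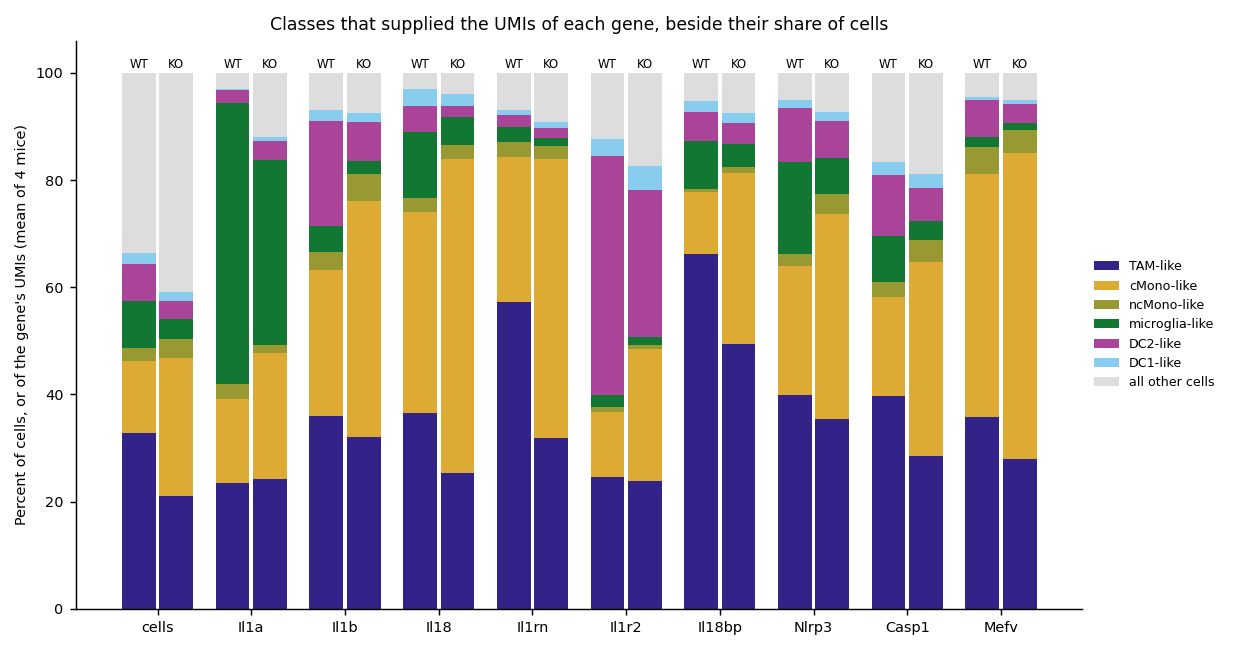
Percent of cells (first pair of bars) and of each member's UMIs in TAM-like, cMono-like, ncMono-like, microglia-like, DC2-like, DC1-like and all other cells, as stacked means over 4 mice per genotype. Il1a is held by microglia-like cells well beyond their share of cells (52.4% of UMIs against 8.70% of cells in WT), and Il1r2 by DC2-like cells.

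The comparison of WT with CaMKK2 KO asked whether the genotype of the host moved these transcripts within a class. Of the 9 members, 1 passed in 1 class: Il1b fell in CaMKK2 KO DC2-like cells. Summed counts per mouse were tested with edgeR's quasi-likelihood test, genes entered from 200 UMIs in a class upward, and p-values were adjusted over all of them. DC2-like cells had 1 of 6 tested members called, against 1.85% of all genes. No member was called in TAM-like cells (0 of 9, with 2.05% of all genes called), cMono-like cells (0 of 9, 1.81%), microglia-like cells (0 of 8, 1.54%), ncMono-like cells (0 of 4, 0.91%), DC1-like cells (0 of 4, 1.64%), mature DC-like cells (0 of 2, 1.25%), NK-like cells (0 of 2, 3.31%), CD8 T-like cells (0 of 1, 1.78%) or all cells summed (0 of 9, 1.57%). At an unadjusted edgeR p under 0.05 there were 4 of 9 members in TAM-like cells (22% of all genes), 3 of 9 in cMono-like (16.3%), 3 of 8 in microglia-like (16.5%), 4 of 6 in DC2-like (15.1%), 2 of 4 in DC1-like (14.9%), 1 of 2 in mature DC-like cells (17%) and 4 of 9 in all cells (16.9%), and 0 in the other classes.

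DESeq2 on the same sums called 2 members in TAM-like cells (6.21% of all genes), 2 in cMono-like cells (4.67%), 1 in microglia-like cells (2.25%), 1 in DC1-like cells (3.05%), 2 in DC2-like cells (3.5%) and 2 in all cells summed (5.88%), the last being Il18bp (log2 fold change 1.28, DESeq2, adjusted p = 0.0297) and Il1r2 (-1.11, DESeq2, adjusted p = 0.0497). Sums over all cells carry the class sizes along with the level per cell, and Il1r2 passed in no single class with either tool. In TAM-like cells the members' median log2 fold change was 0.42 with 7 of 9 positive, beside a median of -0.08 over all genes tested. In cMono-like cells the median was 0.03 with 5 of 9 positive, in microglia-like cells 0.11 with 5 of 8 positive (all genes -0.12, which TMM scaling moved to -0.01), and in DC2-like cells 0.22 with 3 of 6 positive. Folds are CaMKK2 KO over WT, each ± its SE.

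**Figure D3:**
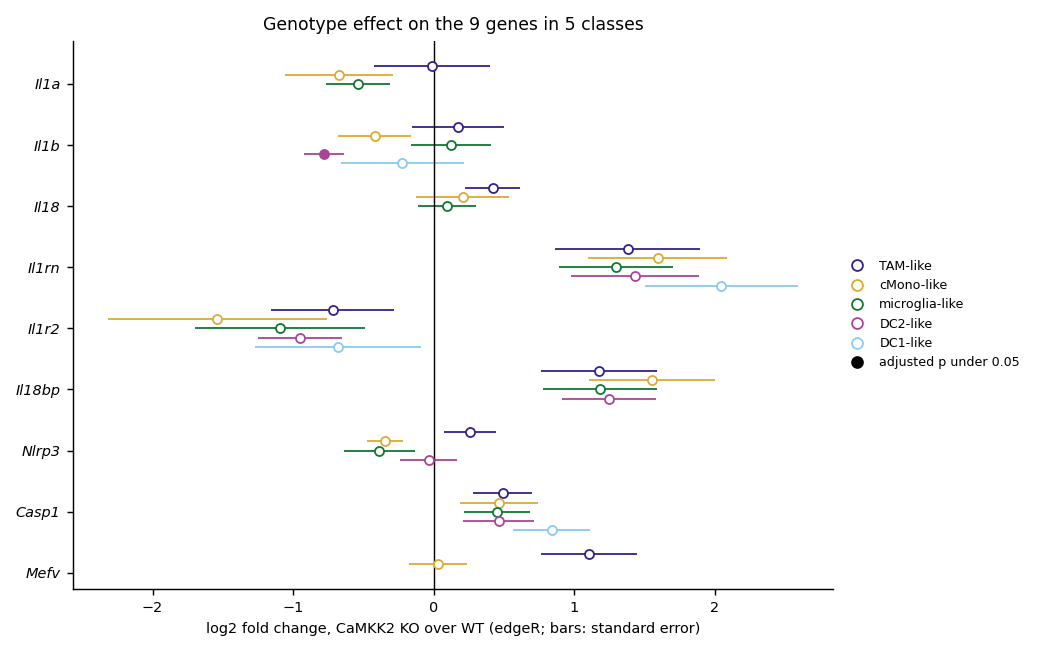
Fitted log2 fold change, CaMKK2 KO over WT, of each member tested in TAM-like, cMono-like, microglia-like, DC2-like and DC1-like cells, with bars of 1 SE and a filled point for an adjusted p under 0.05. Il1rn and Il18bp lie to the right of 0 in TAM-like, cMono-like, microglia-like and DC2-like cells, Il1r2 lies to the left, and Il1b in DC2-like cells (-0.78) is the value that passed.

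Il1b in DC2-like cells stood at 3002, 2333, 1869 and 2802 CPM in the WT mice and at 1623, 1492, 1358 and 1339 CPM in the CaMKK2 KO mice. All 4 CaMKK2 KO values were below the lowest WT value, which was so for 227 of 5194 genes tested in the class. Ranges were apart in either direction for 9.41% of them. The log2 fold change was -0.78 ± 0.14 (edgeR, adjusted p = 0.0232), between -0.90 and -0.68 with any 1 mouse left out. The call was lost without WT mouse 1 (adjusted p = 0.0530), WT mouse 2 (0.0605), WT mouse 4 (0.0988), CaMKK2 KO mouse 2 (0.0739) or CaMKK2 KO mouse 4 (0.0689), and the adjusted p ranged from 0.00072 (DESeq2) to 0.0988 (edgeR) over the alternatives. The 8 cMono markers, all detected in DC2-like cells, summed to 696 to 1968 CPM (WT) and 2148 to 5309 CPM (CaMKK2 KO), also without overlap, and their part in the Il1b difference was not tested.

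In the other classes Il1b did not pass with all mice. In TAM-like cells it stood at 503, 1287, 1309.5 and 1388 CPM in WT mice and at 1003, 1776, 844 and 1444 CPM in CaMKK2 KO mice. The ranges overlapped, and the log2 fold change was 0.17 ± 0.33 (edgeR, adjusted p = 0.79). In cMono-like cells WT mice averaged 2771 ± 1056 CPM of Il1b and CaMKK2 KO mice 2078 ± 186 CPM (SD, n = 4 each), with a log2 fold change of -0.42 ± 0.26 (edgeR, adjusted p = 0.47). WT mouse 1 had 47 cMono-like cells and the lowest WT value, 1336 CPM, and without it the log2 fold change was -0.65 and passed (edgeR, adjusted p = 0.0458). In the 7 mice with enough mature DC-like cells, Il1b was 878, 1006 and 1230.4 CPM in WT and 346, 799, 878 and 826 CPM in CaMKK2 KO mice, apart by less than 1 CPM at the nearest pair, and ranges were apart for 16.5% of all genes there.

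Il1a in microglia-like cells stood at 234, 237, 139 and 268 CPM in WT and 132, 207, 107 and 169 CPM in CaMKK2 KO mice. The ranges overlapped, and the log2 fold change was -0.54 (edgeR, adjusted p = 0.27). In TAM-like cells its fold change was -0.01 and took the other sign under DESeq2 and TMM scaling, so no direction is given. Il18 had log2 fold changes of 0.42 in TAM-like (edgeR, adjusted p = 0.24), 0.21 in cMono-like and 0.10 in microglia-like cells, none of which passed.

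The antagonist Il1rn had positive fold changes in every class where it was tested but passed in none with edgeR. In cMono-like cells it stood at 58.9, 262, 340.2 and 302 CPM in WT mice and at 473, 1025, 350 and 1111 CPM in CaMKK2 KO mice. The lowest CaMKK2 KO value was above the highest WT value (exact permutation p = 0.0286, the smallest possible), although WT mouse 3 and CaMKK2 KO mouse 3 were nearly level. The log2 fold change was 1.60 ± 0.49 (edgeR, adjusted p = 0.15; DESeq2, adjusted p = 0.033). Ranges were apart for 2 of 9 members in cMono-like cells, Il1rn and Il18bp, beside 10.6% of all genes. In cluster 3, the monocyte cluster described below, the ranges of both overlapped through CaMKK2 KO mouse 3.

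In TAM-like cells Il1rn stood at 58.4, 210.0, 189 and 116 CPM in WT and at 248, 545, 124 and 578 CPM in CaMKK2 KO mice. CaMKK2 KO mouse 3 lay inside the WT range and the other three above it. The log2 fold change was 1.38 ± 0.51 (edgeR, adjusted p = 0.16), and ranges were apart for 0 of 9 members in TAM-like cells, beside 14.1% of all genes. In DC1-like cells it was 40.4, 18.7, 39.5 and 2.68 CPM in WT and 123, 77.5, 54.0 and 154 CPM in CaMKK2 KO mice, the only 1 of 4 members there with ranges apart (8.58% of all genes). The log2 fold change of 2.05 ± 0.55 did not pass with edgeR (adjusted p = 0.10) and passed with DESeq2 (adjusted p = 0.013). The summed level of the 8 TAM markers in these DC1-like cells was 1215, 3300.2, 1534 and 1348 CPM in WT and 8277, 2097, 2918 and 5331 CPM in CaMKK2 KO mice, with overlapping ranges (exact permutation p = 0.0857), the part of which was not tested. Il1rn had 1.30 ± 0.41 in microglia-like cells (edgeR, adjusted p = 0.15; DESeq2, adjusted p = 0.0453) and 1.43 ± 0.45 in DC2-like cells (edgeR, adjusted p = 0.15). The microglia-like value rested on 393 Il1rn UMIs from few cells. On average over mice, the 10% of microglia-like cells with the most held 90.0% of them in WT and 76.0% in CaMKK2 KO mice. Over all cells together there were 7339 Il1rn UMIs from WT mice and 23790 from CaMKK2 KO mice, and the values in B-like cells lay in the same direction, the part of which was not tested.

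Il18bp, the IL-18 trap, stood at 7.36, 38.3, 39.8 and 48.0 CPM in WT and at 60.4, 127, 53.1 and 182 CPM in CaMKK2 KO cMono-like cells. The ranges did not overlap in this class, though they did in cluster 3, and the log2 fold change was 1.56 (edgeR, adjusted p = 0.12; DESeq2, adjusted p = 0.025). In TAM-like cells WT mice averaged 62.3 ± 26.5 CPM and CaMKK2 KO mice 142 ± 68.1 CPM, with a log2 fold change of 1.18 (edgeR, adjusted p = 0.15; DESeq2, adjusted p = 0.032). DC2-like cells had 21.6 ± 8.40 and 56.9 ± 25.3 CPM, a log2 fold change of 1.25 (edgeR, adjusted p = 0.11; DESeq2, adjusted p = 0.020).

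Il1r2, the decoy, had negative fold changes in TAM-like, cMono-like, microglia-like, DC2-like and DC1-like cells and passed in none with edgeR. In DC2-like cells it stood at 945, 611, 358 and 392 CPM in WT and at 299, 243, 413 and 224 CPM in CaMKK2 KO mice, with CaMKK2 KO mouse 3 inside the WT range. The log2 fold change was -0.95 ± 0.30 (edgeR, adjusted p = 0.15). In cMono-like cells it was 524, 169, 27.3 and 108 CPM in WT and 42.9, 32.7, 155 and 44.8 CPM in CaMKK2 KO mice, and the log2 fold change of -1.54 ± 0.78 (edgeR, adjusted p = 0.37) became -0.59 without WT mouse 1. In that mouse the summed level of the 9 neutrophil markers in cMono-like cells was 924 CPM, against 128 to 229.9 CPM in the other WT and 119 to 189 CPM in the CaMKK2 KO mice, and Il1r2 reached 1486 CPM in its neutrophil-like cells, the part of which was not tested. Il1r2 overlaps the annotated gene Gm37347 on the same strand, so reads may be divided between them.

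Of the inflammasome genes, Mefv had the largest fold change in TAM-like cells, at 10.6, 24.4, 13.7 and 15.7 CPM in WT mice and 24.6, 44.3, 20.1 and 52.3 CPM in CaMKK2 KO mice. The ranges overlapped only through CaMKK2 KO mouse 3 and WT mouse 2, and the log2 fold change was 1.10 ± 0.34 (edgeR, adjusted p = 0.11; DESeq2, adjusted p = 0.016). In cMono-like cells, its main source, WT mice averaged 84.9 ± 21.5 CPM and CaMKK2 KO mice 88.7 ± 19.1 CPM, a log2 fold change of 0.03. The 8 cMono markers in TAM-like cells summed to 1021 to 1619 CPM (WT) and 1487 to 4472 CPM (CaMKK2 KO), and their part in the Mefv difference was not tested. Nlrp3 in cMono-like cells averaged 85.6 ± 7.61 CPM over WT mice and 66.6 ± 7.51 CPM over CaMKK2 KO mice (exact permutation p = 0.0571), with a log2 fold change of -0.35 (edgeR, adjusted p = 0.21). In TAM-like cells its fold change was 0.26 and in microglia-like cells -0.39, neither of which passed. Casp1 had log2 fold changes between 0.45 and 0.49 in TAM-like, cMono-like, microglia-like and DC2-like cells and 0.84 in DC1-like cells (edgeR, adjusted p = 0.18), none past the threshold. Its values were 0.35 in NK-like, 0.20 in ncMono-like and, with the other sign, -0.46 in CD8 T-like cells (edgeR, adjusted p = 0.34, 0.93 and 0.39).

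Whether the genotype difference itself depended on the class was tested with an interaction term and the mouse as a block. Of the members, 0 passed with edgeR for cMono-like against TAM-like cells (0.178% of all genes), microglia-like against TAM-like cells (0.0735%) or DC2-like against TAM-like cells (0.312%). The Mefv term was -1.01 ± 0.23 on the log2 scale, smaller in cMono-like than in TAM-like cells (edgeR, adjusted p = 0.0990), and DESeq2 called it (adjusted p = 0.0115, with 1.14% of all genes called). Nlrp3 differed in the same direction, by -0.61 (edgeR, adjusted p = 0.143), and Il1b by -0.54 (edgeR, adjusted p = 0.300). For DC2-like against TAM-like cells the Il1b term was -0.96 (edgeR, adjusted p = 0.262), so the fall of Il1b in DC2-like cells was not shown to differ from TAM-like cells.

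The balance of antagonist to agonist was taken as the log2 ratio of Il1rn to Il1b UMIs in each mouse, which compares genotypes and is no ratio of molecules, since the genes were not scaled to each other. In cMono-like cells it was -3.69 ± 0.55 in WT and -1.65 ± 0.86 in CaMKK2 KO mice (SD, n = 4 each), 2.04 higher in CaMKK2 KO mice with no overlap (two-sided exact permutation p = 0.0286, adjusted p = 0.0571 over 4 comparisons). In TAM-like cells it was -3.02 ± 0.42 and -1.95 ± 0.61, a difference of 1.07 (exact permutation p = 0.0571). Microglia-like cells differed by 1.18 (exact permutation p = 0.0857), and all cells together by 1.77 with no overlap (exact permutation p = 0.0286, adjusted p = 0.0571). No adjusted value passed 0.05. CaMKK2 KO mouse 3 was the nearest of its genotype to the WT mice in TAM-like cells, at -2.77.

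**Figure D4:**
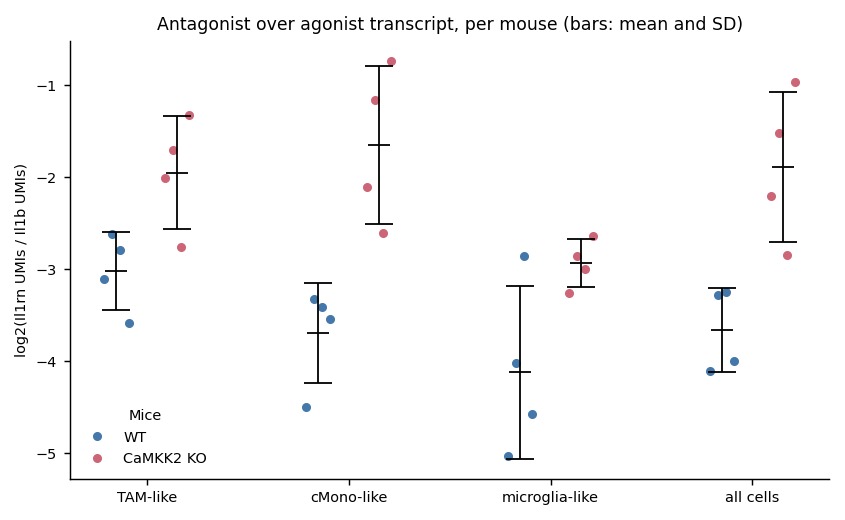
log2 ratio of Il1rn to Il1b UMIs per mouse in TAM-like, cMono-like, microglia-like and all cells, with 1 point per mouse and bars for the mean and SD of each genotype. In cMono-like cells the 4 CaMKK2 KO points lie above the 4 WT points (difference of means 2.04), and in TAM-like cells CaMKK2 KO mouse 3 (-2.77) falls among the WT points.

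Shares of cells with a UMI lay in the same directions. After thinning to 3000 UMIs per cell, which left out 7 WT and 24 CaMKK2 KO cMono-like cells, 31.9 ± 13.02% of WT and 61.1 ± 16.2% of CaMKK2 KO cMono-like cells held an Il1rn UMI (54.7% and 81.7% unthinned). Il1b was found in 86.7 ± 6.87% of WT and 64.0 ± 15.2% of CaMKK2 KO DC2-like cells (94.4% and 84.2% unthinned). Of 90 exact permutation tests over members and classes the smallest adjusted p was 0.514, so none passed. Since 4 against 4 mice cannot give a p below 0.0286, any of the 90 could pass only if many lay at that limit. The adjusted values therefore cannot decide on a single member.

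The cells of a class did not lie in the same clusters in both genotypes. Cluster 0, led by Ly6i, Gatm, Arg1 and the MHC class II genes H2-Eb1, H2-Ab1 and H2-Aa, held 88.1% of CaMKK2 KO TAM-like cells. Cluster 1, led by Apoe, Pf4, Spp1, Vcam1, Mrc1 and Ms4a7, held 89.1% of WT TAM-like cells. There were 54 WT and 1861 CaMKK2 KO cells in cluster 0, and 1767 and 88 in cluster 1. Il1b in cluster 0 of CaMKK2 KO mice was 1669 ± 478 CPM and in cluster 1 of WT mice 1357 ± 488 CPM, while Il1rn was 473 ± 267 and 130.4 ± 61.2 CPM (SD, n = 4 each). The few cells of the other genotype in each cluster are set beside these, with Il1b at 2211 ± 661 CPM in cluster 0 of WT mice (n = 3, 52 cells) and 672 ± 111 CPM in cluster 1 of CaMKK2 KO mice (n = 2, 76 cells). Their Il1rn was 287 ± 121 and 91.7 ± 38.0 CPM. These clusters were made from the same cells and their difference was not tested. Cluster 3, led by Chil3 and Vcan, held 67.9% of WT and 53.2% of CaMKK2 KO cMono-like cells, and Il1r2 there stood at 426, 112, 18.3 and 63.2 CPM in WT mice, the first of them from 29 cells, and averaged 13.1 ± 5.86 CPM over CaMKK2 KO mice, with overlapping ranges. A further 29.4% of WT cMono-like cells lay in cluster 1 and 42.3% of CaMKK2 KO ones in cluster 0. In cluster 3, Il1rn was 75.0, 302, 382 and 410 CPM in WT and 558, 1038, 154 and 1316 CPM in CaMKK2 KO mice. Il18bp there was 3.41, 18.7, 31.0 and 51.8 CPM in WT and 58.4, 84.9, 17.1 and 147 CPM in CaMKK2 KO mice. Both sets of ranges overlapped.

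For the wider pathway, 53 further genes of ligands, receptors, signalling, sensors, adaptors, pores and priming were listed. Il36a, Il36b, Il36g and Il36rn were not among the genes counted. With edgeR, of those tested 0 rose and 1 fell of 38 in TAM-like cells (2.05% of all genes called). The same held of 36 in cMono-like (1.81%), 26 in microglia-like (1.54%) and 24 in DC2-like cells (1.85%). In DC1-like cells 1 rose and 0 fell of 13 (1.64%), and in all cells 0 rose and 2 fell of 43 (1.57%). Of 19 in ncMono-like (0.91%), 8 in mature DC-like (1.25%), 25 in NK-like (3.31%) and 20 in CD8 T-like cells (1.78%), 0 changed. With DESeq2, 5 rose and 2 fell in TAM-like cells (6.21% of all genes), and 0 rose and 2 fell in cMono-like cells (4.67%). In TAM-like cells Casp4 (log2 fold change 1.11), Naip2 (1.01), Gsdmd (0.62), Pstpip1 (0.48) and Pycard (0.39) rose, and Nlrp1b (-0.94) and Irak4 fell. Cd14 fell with Irak4 in cMono-like cells. The other classes named kept their counts. With edgeR, Pstpip1 passed after TMM scaling and Naip2 with clusters in place of gates. Irak4, a kinase that carries the signal of IL-1 family receptors, was the gene that fell with edgeR in TAM-like, cMono-like and DC2-like cells. In TAM-like cells it stood at 32.9, 34.6, 33.5 and 33.5 CPM in WT and at 22.8, 20.7, 19.1 and 15.4 CPM in CaMKK2 KO mice. The ranges were well apart, and the log2 fold change was -0.76 ± 0.12 (edgeR, adjusted p = 0.00993), and 8 of 8 fits with 1 mouse left out passed. The values in cMono-like cells (-0.80, edgeR, adjusted p = 0.0406) and DC2-like cells (-0.81, edgeR, adjusted p = 0.0467) lay near the threshold. With 1 mouse left out, 7 of 8 fits in cMono-like cells (edgeR, adjusted p up to 0.107) and 8 of 8 in DC2-like cells (0.0537 to 0.178) did not pass. With clusters in place of gates neither passed (edgeR, adjusted p = 0.235 and 0.0938), and in DC2-like cells neither did the fit from 50 UMIs upward (0.0518) or that with outlying cells kept (0.0952). Over all cells Irak4 had -0.63 (edgeR, adjusted p = 0.0166), lost in 4 of 8 fits with 1 mouse left out and with TMM scaling (0.0507). Nfkbiz, an IκB protein induced by IL-1, fell in microglia-like cells from 648, 595, 419.6 and 525 CPM to 255, 199, 345 and 160.3 CPM (log2 fold change -1.18, edgeR, adjusted p = 0.0187). That call was lost without WT mouse 2, WT mouse 4, CaMKK2 KO mouse 2 or CaMKK2 KO mouse 4 (edgeR, adjusted p from 0.0557 to 0.0756). Pycard, the adaptor that joins sensors to caspase-1, rose in DC1-like cells by 1.10 on the log2 scale (edgeR, adjusted p = 0.0471), a call lost in 7 of 8 fits with 1 mouse left out (adjusted p up to 0.147), with clusters in place of gates (0.174) and without cells near a gate limit (0.148). Nlrp1a, another inflammasome sensor, fell in all cells together, from 3.49, 2.94, 3.17 and 2.56 CPM to 0.23, 0.51, 0.39 and 0.59 CPM (log2 fold change -2.83, edgeR, adjusted p = 0.00193). It was called in no single class, but over all cells it only just reached the filter at 200 UMIs. Each class holds a part of that count, so the missing calls say nothing about the classes. A sum over all cells also carries the class sizes along with the level per cell. Nlrp1a UMIs came mostly from WT mice, through which it met the filter at 200 UMIs, and its p-value carries that selection. In the 4 fits without a WT mouse it fell below that filter. The 4 fits without a CaMKK2 KO mouse passed (edgeR, adjusted p from 0.00534 to 0.00999). They kept the WT mice through which it entered, so they add no support.

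Across the 108 sums of a class in a mouse, each member had genes of like pattern, given with Pearson's r of log2(CPM + 10) over 8614 genes, as a description since sums of 1 mouse share a library. For Il1a these were Lhfpl2 (0.88), Tmem119 (0.85) and Itgb5 (0.85), and for Il1b Tnfaip2 (0.96), Csf2ra (0.94) and Il13ra1 (0.92). For Il18 they were Fcgr1 (0.89), Tgm2 (0.88) and Capza2 (0.88), for Il1rn Dram1 (0.92), Cfb (0.91) and Ly6i (0.91), and for Il18bp Cxcl16 (0.88), Tmem106a (0.88) and Creb5 (0.86). Nlrp3 went with Igsf6, Tlr2 and Ier3 (0.90 each) and Mefv with Emilin2 (0.91), Tgm2 (0.91) and Gm36161 (0.90). The closest genes were less alike for Il1r2 (Lsr at 0.72) and Casp1 (Oas3 at 0.67).

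Mice of 1 genotype differed from each other in several members at once. CaMKK2 KO mouse 3 was the lowest of its genotype for 7 of 9 members in TAM-like cells (Il1b, Il1rn, Il18, Il18bp, Nlrp3, Casp1 and Mefv), and WT mouse 1 for 5 of 9 (Il1b, Il1rn, Il18bp, Casp1 and Mefv). In microglia-like cells CaMKK2 KO mouse 2 was the highest of its genotype for 7 of 9 members. The share of all genes with the same mouse at the extreme is not given, so these counts cannot be set apart from other genes. Without CaMKK2 KO mouse 3, edgeR called 3.89% of all genes in TAM-like cells, against 2.05% with all mice.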

How the data were processed

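Live CD45+ cells of 4 WT and 4 CaMKK2 KO mice were profiled with 10x Chromium 3' v3.1 chemistry and hashtags. The authors deposited raw UMI counts per gene and cell, which per the submitters' processing notes came from bcl2fastq 2.20, Cell Ranger 4.0.0 and STAR 2.7.5c on mm10. Because UMIs were counted at the 3' end, amplification copies were removed before deposit and levels are not scaled by length. Here mice were assigned with HTODemux in Seurat 5.3.0 (quantile 0.99), cells beyond 3 median absolute deviations in mitochondrial share, genes or UMIs were removed with scater 1.30.1, and doublets were removed by hashtag (667 WT, 508 CaMKK2 KO) and by Scrublet in scanpy 1.11.5 (174 and 134). A cell joined the class with the highest marker score if that was at least 0.25 with at least 3 markers detected. Counts were summed per mouse and class (at least 10 cells) and tested with edgeR 4.0.16 in R 4.3.3, with total UMIs as library size and Benjamini-Hochberg adjustment over genes with at least 200 UMIs. Where DESeq2 1.42.0, TMM scaling, a filter at 50 UMIs, Seurat clusters, other cell filters or a left-out mouse were used instead, the closing section gives the effect. The filter at 200 UMIs is taken over both genotypes. Single values were compared by exact permutation over mice. Scripts were tested on simulated counts. The members and lists were chosen with earlier results of these data known. All 9 members were named, with Camkk2 as the check of the labels, pathway genes where they passed, and the 3 genes closest in pattern to each member. Intervals and limits cover counting error only, and the labels do not number the mice.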

Additional observations from a re-analysis of the deposited data

Results flagged for a closer look

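In groups of 4 mice, the highest or lowest value was set against the others for the members in TAM-like, cMono-like, microglia-like and DC2-like cells, and 4 of 64 groups had a mouse whose gap to its neighbour exceeded Dixon's 95% critical share of the range. Chance flags about 1 in 20 groups. Il1a in TAM-like cells was 38.8 CPM in CaMKK2 KO mouse 2, and the nearest other mouse had 13.02 CPM. Il1b in TAM-like cells was 503 CPM in WT mouse 1, and the nearest other WT mouse had 1287 CPM. Il1r2 in cMono-like cells was 155 CPM in CaMKK2 KO mouse 3, with the nearest at 44.8 CPM. Il1r2 in microglia-like cells was 38.7 CPM in CaMKK2 KO mouse 4, with the nearest at 13.7 CPM.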

How the results depend on the processing

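Genotype and channel cannot be told apart, and 4 against 4 mice cannot give an exact p below 0.0286, or 3 against 4 below 0.0571. No paired analysis was possible because the labels number no mice and no mouse is in both genotypes. With DESeq2 the members called were 2 in TAM-like, 1 in microglia-like, 2 in cMono-like, 1 in DC1-like and 2 in DC2-like cells, 2 in all cells, and 1 for the cMono against TAM difference, where edgeR called 1 in DC2-like cells and 0 elsewhere. With 1 mouse left out the number called ranged from 0 to 2 in DC2-like cells (Il1b, with Il18bp without CaMKK2 KO mouse 3, where 5.78% of all genes passed), from 0 to 1 in cMono-like cells (Il1b without WT mouse 1, 1.99% of all genes) and from 0 to 1 in NK-like cells (Casp1 without CaMKK2 KO mouse 3, 13.2% of all genes against 3.31% with all mice). The cause of these differences was not tested.

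With clusters in place of gates, TAM-like cells held 58.8% of Il1rn, 71.3% of Il18bp and 51.3% of Nlrp3 UMIs, and the Il1rn to Il1b log2 ratio differed by 1.43 in TAM-like cells (now past the unadjusted threshold) and 1.78 in cMono-like cells (no longer past it). In CaMKK2 KO mice 1 to 4, the TAM cluster 0 held 2427, 5136, 1575 and 3311 Il1rn UMIs. The monocyte cluster 3 held 1193, 4242, 99 and 4148. With 1 mouse left out the ratio difference ranged from 1.74 to 2.36 in cMono-like cells and from 1.47 to 2.10 in all cells, none past the threshold by construction.

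Directions that turned belonged to differences that had not passed. Il1a in TAM-like cells became 0.061 with DESeq2, 0.085 with TMM and 0.52 with clusters. With outlying cells kept, Il1b became -0.019 in microglia-like and 0.34 in NK-like cells and Nlrp3 0.072 in DC2-like cells. With 1 mouse left out, log2 fold changes ranged from -0.66 to 0.18 for Il1a, and from -0.069 to 0.33 for Il1b, in TAM-like cells, from -0.033 to 0.41 for Il1b and -0.020 to 0.20 for Il18 in microglia-like cells, from -0.012 to 0.42 for Il18 and -0.070 to 0.18 for Mefv in cMono-like cells, from -0.014 to 0.89 for Casp1 in ncMono-like cells, from -0.46 to 0.34 for Il1b in DC1-like cells, from -0.14 to 0.12 for Nlrp3 in DC2-like cells, and from -0.34 to 0.030 for Il1b and -0.26 to 0.064 for Nlrp3 in all cells.

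Leaving out cells near a gate limit, an alternative chosen after seeing the data, kept the direction and side of the threshold of the 57 results recomputed, and a filter at 50 UMIs that of 60.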

Other observations

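Cluster 9, led by Mt2, Hmox1 and Hilpda and left unnamed, held 177 WT and 188 CaMKK2 KO cells and was set against the main TAM cluster of the same mouse. Il1b was 906 ± 637 CPM in cluster 9 and 1513 ± 477 CPM in the TAM cluster (SD, n = 8), lower in 7 of 8 mice by a mean of -0.93 on the log2(CPM + 1) scale (exact sign-flip permutation p = 0.0156, adjusted p = 0.0352 over the 9 members). Il18bp was lower in 8 of 8 mice (log2 difference -1.03, exact sign-flip permutation p = 0.00781, adjusted p = 0.0352). Il18 and Casp1 were each lower in 7 of 8 mice (log2 differences -1.17 and -0.80, exact sign-flip permutation, adjusted p = 0.0352 each). These values rest on few counts, as a mouse had from 1 to 16 Il18 UMIs in cluster 9. Casp1 had from 4 to 27 UMIs there and Il18bp from 2 to 52. Il1rn was 420.5 ± 301 CPM in cluster 9 and 302 ± 256 CPM in the TAM cluster, higher in 7 of 8 mice without passing (exact sign-flip permutation, adjusted p = 0.169). The clusters were drawn from expression of other genes in the same cells, with the members left out. These values describe the clusters and are no independent test.

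Among the pathway genes, P2rx4 and P2rx7, channels that respond to extracellular ATP upstream of NLRP3, lie 1431 and 39737 bases from Camkk2 on chromosome 5. Neither passed in any class tested: P2rx7 had log2 fold changes of 0.49 in cMono-like, -0.16 in TAM-like and -0.41 in microglia-like cells, and P2rx4 of -0.03 in TAM-like cells.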
